A study of Mus musculus with 8 samples.

Results

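The genes described here encode matrix proteases and their inhibitors: the matrix metalloproteinases Mmp2, Mmp14 and Mmp19, the proteoglycan-cleaving proteases Adamts1, Adamts4 and Adamts9, and the 4 tissue inhibitors of metalloproteinases, Timp1, Timp2, Timp3 and Timp4. They were taken by symbol from probe sets with a single annotated gene, with the highest-mean probe set standing for a gene, and all 10 were found among 22180 genes, each with 1 probe set. Left ventricle of female C57BL/6 mice aged 3 to 4 months was profiled on 8 one-colour arrays, 2 for each of 4 states: non-pregnant mice in diestrus (replicates 2 and 3), day 12 of pregnancy (replicates 2 and 3), day 19 of pregnancy (replicates 1 and 2) and day 1.5 after birth (replicates 2 and 4). The treatment protocol gives the late group as 18/19 days, and non-pregnant mice were represented by diestrus alone. The labels do not tie the arrays to animals, and the error of each test is the spread between arrays, which may be technical. Values are log2 RMA values, on which 1 unit is a 2-fold difference in signal. A probe set's level is compared between arrays here, never with that of another gene.

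Matrix metalloproteinases and ADAMTS proteases are zinc enzymes that cut collagens, basement membrane proteins and proteoglycans outside the cell. Most are made as inactive proenzymes, so their mRNA level does not give their activity. TIMPs bind the active site of the proteases and block it, and in the heart the balance between proteases and TIMPs is a known factor in remodelling of the interstitial matrix. TIMP1 can be induced by cytokines and growth factors, and TIMP2 also takes part in the activation of pro-MMP2 by MMP14. TIMP3 is held in the matrix and inhibits ADAM and ADAMTS proteases as well, and TIMP4 is known for its high expression in the heart.

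Upstream sequences were read from RefSeq promoters of build GRCm38.p6 for the 7 genes listed there: Timp1, Timp2, Timp3, Timp4, Mmp14, Adamts1 and Adamts9. The 250 bases before the annotated start are printed for Timp1 and Timp4, the inhibitors with the widest differences between states, which lay in opposite directions after birth, and for Adamts1, a protease whose day 19 arrays both lay above the other 6. The regions are chrX:20869916-20870165 on the plus strand for Timp1, chr6:115252206-115252455 on the minus strand for Timp4 and chr16:85803114-85803363 on the minus strand for Adamts1. Each is given 5′ to 3′ along the gene, with matches to the motifs searched in capitals.
Timp1: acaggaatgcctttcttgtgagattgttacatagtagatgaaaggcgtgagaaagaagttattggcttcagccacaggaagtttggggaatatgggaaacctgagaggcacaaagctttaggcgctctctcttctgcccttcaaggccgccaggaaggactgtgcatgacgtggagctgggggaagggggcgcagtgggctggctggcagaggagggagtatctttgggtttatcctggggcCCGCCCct
Timp4: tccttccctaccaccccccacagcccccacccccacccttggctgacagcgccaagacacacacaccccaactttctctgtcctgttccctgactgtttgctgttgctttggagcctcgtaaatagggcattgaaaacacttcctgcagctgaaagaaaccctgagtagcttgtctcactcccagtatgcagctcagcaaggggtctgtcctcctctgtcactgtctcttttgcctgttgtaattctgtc
Adamts1: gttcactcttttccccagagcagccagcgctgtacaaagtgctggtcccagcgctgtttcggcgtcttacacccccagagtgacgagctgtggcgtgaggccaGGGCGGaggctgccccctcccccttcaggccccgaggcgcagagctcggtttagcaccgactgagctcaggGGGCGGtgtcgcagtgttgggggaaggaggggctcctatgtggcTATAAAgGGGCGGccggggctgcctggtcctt
The motifs were the GC box GGGCGG, the TATA box TATAAA, the AP-1 motif TGANTCA and the STAT motif TTCNNNGAA, searched on both strands. Timp1 had 1 GC box, on the opposite strand, starting 8 bases before the start. Adamts1 had 3 GC boxes, at 147, 76 and 25 bases, and a TATA box at 32 bases, which does not overlap them. Timp4 held no match in this window. A GC box was found before 6 of the 7 genes, against 32.7% of 32851 promoters of the same length, and a TATA box before 1 of 7, against 12.4%. AP-1 and STAT matches, present in 6.75% and 7.02% of promoters, were found in none of the 7 windows. A match is a string of letters and not evidence of binding.

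The tissue was checked against marker genes. Ventricular cardiomyocyte markers (7 genes, among them the myosin heavy chain Myh6 at 12.34 to 12.60) averaged between 11.77 and 12.00 on the 8 arrays. Over all probe sets, day 19 replicate 2 correlated at 0.969 to 0.977 with the other arrays, which correlated at 0.980 to 0.992 among themselves. That array had high macrophage and interferon markers: relative to the diestrus mean, 10 macrophage genes averaged 1.25 on it and 0.10 on day 19 replicate 1, and 8 interferon-response genes 2.36 and 0.20. Neutrophil markers (8 genes, all below the filter on low values) averaged 0.84 on replicate 2 and 0.22 on replicate 1. Immediate-early genes (10 genes that cells induce quickly on stimulation) were above the diestrus mean on both day 19 arrays, by 0.42 on replicate 1 and 1.00 on replicate 2, and by -0.040 to 0.19 on the day 12 and post-partum arrays. At day 19 against diestrus 10 of 10 were higher, 6 at an unadjusted p under 0.05 in limma, where 7.29% of all genes had such a p. Their median difference was 0.72, against -0.029 over all genes tested. Fos passed the filter only through its day 19 mean of 5.90, so its place in these counts is no result. The part of the immediate-early genes in the day 19 values of the proteases and TIMPs was not tested. Atrial markers (6 genes) averaged 2.62 above the diestrus mean on day 19 replicate 1 and 1.01 above it on day 12 replicate 3. The atrial light chain Myl7 stood at 11.76 and 10.04 there and at 8.24 on diestrus replicate 3. On the other 5 arrays Myl7 stood at 4.56 to 5.12. On day 12 replicate 3, Sln was also high, at 7.89, against 4.51 and 6.21 in diestrus, and Gja5 was 5.80, against 5.46 and 5.67. Myl4, Nppa and Bmp10 lay between the diestrus arrays there, at 6.92, 11.13 and 4.67. Mesothelial markers (9 genes) averaged 1.01 above the diestrus mean on day 19 replicate 1 and -0.29 to 0.17 on the others. Since whole tissue was used, fewer cells of a type and less RNA per cell cannot be told apart.

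Timp1 had the widest range of the 10 genes, 1.89 log2 units between its highest and lowest state means. It was 6.55 and 6.86 on the diestrus arrays, 6.24 and 6.50 at day 12, 7.59 and 8.04 at day 19 and 7.93 and 8.60 post-partum. The 4 arrays of late pregnancy and the early post-partum period lay above the other 4, with no overlap, while the day 12 arrays lay just below diestrus. The diestrus mean was 6.70 ± 0.22, the day 12 mean 6.37 ± 0.19, the day 19 mean 7.81 ± 0.32 and the post-partum mean 8.27 ± 0.48 (SD, n = 2 each). The order from the top was thus post-partum, day 19, diestrus and day 12; the post-partum and day 19 arrays overlapped, and diestrus and day 12 were separated by 0.048.

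**Figure D1:**
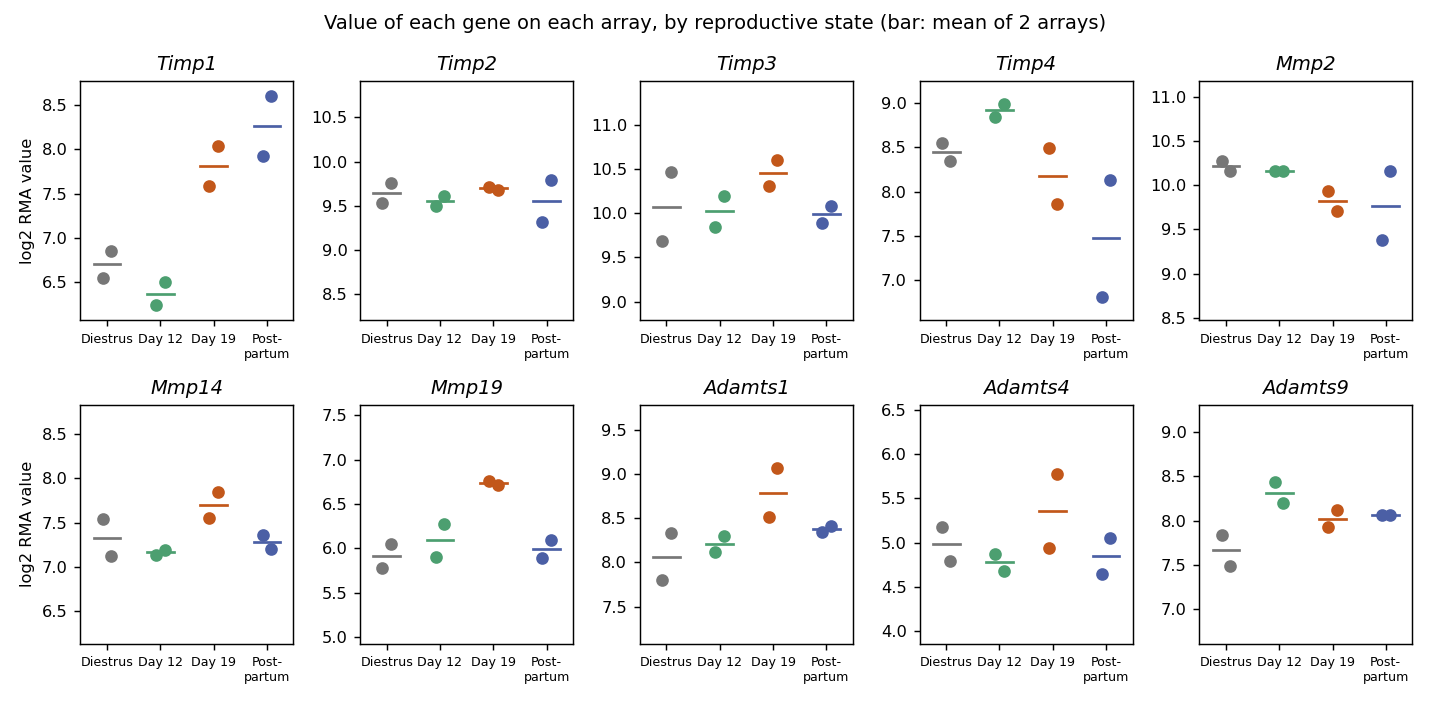
Log2 RMA value of each of the 10 genes on each array (points) in diestrus, at day 12 and day 19 of pregnancy and post-partum, with the mean of the 2 arrays as a bar; every panel spans the same number of log2 units. Timp1 is high at day 19 and post-partum, Mmp19 at day 19, and the 2 post-partum arrays of Timp4 lie 1.32 apart.

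Against diestrus, Timp1 was higher by 1.56 ± 0.26 log2 post-partum (2.95-fold; 95% interval 0.96 to 2.17) and by 1.11 ± 0.26 at day 19 (2.16-fold), where the error is the moderated standard error of limma. At day 12 the difference was -0.33 ± 0.26. Day 19 exceeded day 12 by 1.44 ± 0.26 (2.71-fold). By unadjusted p, Timp1 ranked 6 of 13872 genes for post-partum against diestrus and also 6 for day 19 against day 12. No comparison of Timp1 passed after adjustment over all genes: the limma adjusted p was 0.652 post-partum, 0.657 at day 19 and 0.675 for day 19 against day 12. Leaving out each array in turn, the post-partum difference ranged from 1.22 to 1.90 and that of day 19 from 0.89 to 1.33. Without day 19 replicate 1, when the group rests on the array with high immune markers, the difference of Timp1 was 1.33 from diestrus and 1.66 from day 12. Post-partum, the state with the highest Timp1 mean, macrophage markers averaged -0.019 and 0.38 and interferon markers 0.038 and 0.35 relative to the diestrus mean. On day 19 replicate 2 they averaged 1.25 and 2.36. Of the 10 macrophage genes, 7 were higher and 3 lower post-partum than in diestrus. Among the higher ones, Cd68 was 9.37 and 9.22 post-partum, against 8.22 and 8.41 in diestrus. The part of the macrophage and interferon markers in the Timp1 values was not tested.

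Timp4 had the next widest range, 1.44 log2 units, and was lowest post-partum. Its values were 8.56 and 8.35 in diestrus, 8.85 and 8.99 at day 12, 8.49 and 7.86 at day 19 and 6.81 and 8.13 post-partum. Both day 12 arrays lay above diestrus and both post-partum arrays below it, but the post-partum pair was 1.32 apart. The difference from diestrus was -0.98 ± 0.40 post-partum (limma adjusted p = 0.722), and it was -1.64 without replicate 4 and -0.32 without replicate 2. At day 12 it was 0.47 ± 0.40 and at day 19 -0.28 ± 0.40, with overlapping arrays at day 19. Timp1 and Timp4 thus stood on opposite sides of the diestrus mean on both post-partum arrays, Timp1 by 1.22 and 1.90 and Timp4 by -1.64 and -0.32 on replicates 2 and 4. On the day 12 arrays the signs were the other way, with Timp1 at -0.46 and -0.20 and Timp4 at 0.40 and 0.54. Over the 8 arrays, which fall into 4 pairs of 1 state each, the Pearson correlation of Timp1 and Timp4 was -0.67 and Spearman's rho -0.86, as a description.

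**Figure D2:**
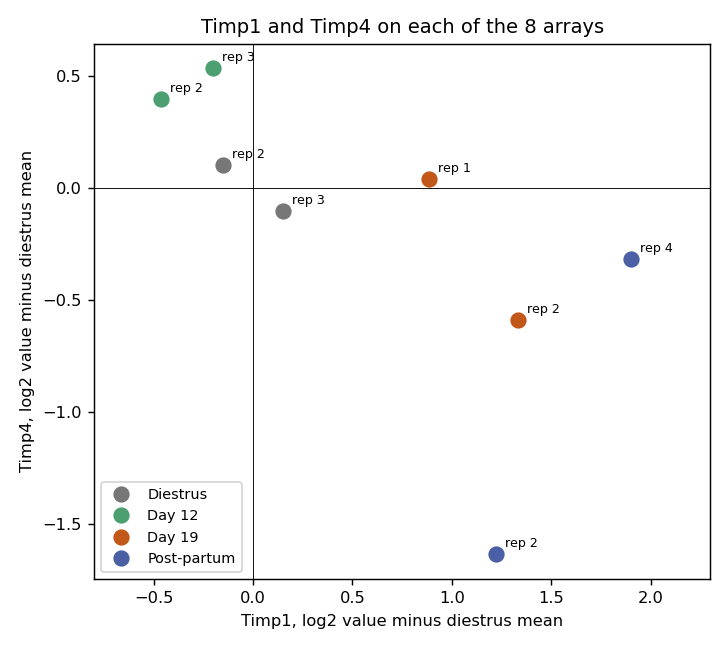
Timp1 (horizontal axis) and Timp4 (vertical axis) on each of the 8 arrays, as log2 value minus the diestrus mean of the gene; colours mark the states and labels the replicate numbers. The 2 post-partum arrays lie to the right of and below the zero lines, with Timp1 at 1.22 and 1.90 and Timp4 at -1.64 and -0.32, and the 2 day 12 arrays at the upper left.

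The other inhibitors differed less. Timp2 was 9.53 and 9.76 in diestrus, 9.49 and 9.61 at day 12, 9.71 and 9.68 at day 19 and 9.32 and 9.80 post-partum. Its state means spanned 0.14, less than the 0.23 between the diestrus arrays, and its 95% interval for post-partum against diestrus ran from -0.51 to 0.33. Timp3 was 9.68 and 10.46 in diestrus, 9.85 and 10.20 at day 12, 10.31 and 10.61 at day 19 and 9.89 and 10.08 post-partum. The diestrus arrays of Timp3 were 0.78 apart, so its day 19 difference of 0.39 ± 0.26 from diestrus lay within their spread, while both day 19 arrays lay above both day 12 and both post-partum arrays.

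Among the metalloproteinases, Mmp19, which cuts basement membrane proteins, was high at day 19. It stood at 5.78 and 6.05 in diestrus, 5.90 and 6.28 at day 12, 6.76 and 6.71 at day 19 and 5.89 and 6.09 post-partum. The day 19 arrays lay above all 6 others and 0.052 from each other. Day 19 exceeded diestrus by 0.82 ± 0.18 (1.77-fold; limma adjusted p = 0.657) and day 12 by 0.65 ± 0.18 (adjusted p = 0.675). Post-partum against day 19 gave -0.74 ± 0.18 (limma adjusted p = 0.589), and post-partum against diestrus 0.078 ± 0.18. With each array left out the day 19 difference from diestrus ranged from 0.69 to 0.96. Macrophage markers averaged 0.10 and 1.25 and mesothelial markers 1.01 and 0.0038 above diestrus on day 19 replicates 1 and 2, where Mmp19 was 0.85 and 0.80 above. Their part in the Mmp19 values was not tested.

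Mmp14, the membrane-anchored protease that activates pro-MMP2, was 7.54 and 7.12 in diestrus, 7.13 and 7.19 at day 12, 7.55 and 7.84 at day 19 and 7.36 and 7.21 post-partum. Its day 19 arrays were the highest, by a margin of only 0.010 over diestrus replicate 2. Day 19 exceeded day 12 by 0.53 ± 0.18 (limma adjusted p = 0.675) and diestrus by 0.37 ± 0.18, a value that was 0.16 without diestrus replicate 3. Mmp2, the gelatinase that MMP14 activates, was 10.27 and 10.16 in diestrus, 10.16 and 10.16 at day 12, 9.93 and 9.71 at day 19 and 9.38 and 10.16 post-partum. Both day 19 arrays lay below both diestrus arrays, while post-partum replicate 4 was within 0.0049 of the lower diestrus array. The day 19 difference was -0.40 ± 0.24 and the post-partum one -0.45 ± 0.24 (limma adjusted p = 0.673 and 0.722). Without post-partum replicate 2 the post-partum difference was -0.060. Fibroblast markers (10 genes), of a cell type that makes much of the matrix, averaged -0.013 and -0.62 on day 19 replicates 1 and 2 and -0.15 and 0.16 on post-partum replicates 2 and 4; their part in the Mmp2 values was not tested.

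The ADAMTS proteases had different patterns. Adamts9, which cleaves versican and aggrecan, was 7.84 and 7.49 in diestrus, 8.43 and 8.20 at day 12, 7.92 and 8.12 at day 19 and 8.06 and 8.06 post-partum. All 6 arrays of the pregnancy-related states lay above both diestrus arrays. Its difference from diestrus was 0.65 ± 0.17 at day 12 (1.57-fold; limma adjusted p = 1.00), 0.36 ± 0.17 at day 19 and 0.40 ± 0.17 post-partum (adjusted p = 0.657 and 0.722). Without diestrus replicate 3 these values were 0.47, 0.18 and 0.22. Among the 10 genes, Adamts9 was the only 1 with an unadjusted p under 0.05 at day 12.

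Adamts1, another versican-cleaving protease, was 7.80 and 8.33 in diestrus, 8.11 and 8.30 at day 12, 8.51 and 9.07 at day 19 and 8.35 and 8.41 post-partum. Both day 19 arrays lay above the other 6. Day 19 exceeded diestrus by 0.72 ± 0.24 (1.65-fold; limma adjusted p = 0.657) and day 12 by 0.58 ± 0.24 (adjusted p = 0.675). The difference from diestrus was 0.44 without day 19 replicate 2. It was 1.00 without day 19 replicate 1, when the state rests on 1 array, that with high immune markers. The difference from day 12 was 0.30 without day 19 replicate 2 and 0.86 without replicate 1. Adamts4, a cleaver of aggrecan and versican, was 5.17 and 4.80 in diestrus, 4.88 and 4.68 at day 12, 4.94 and 5.78 at day 19 and 4.64 and 5.05 post-partum. Only the day 19 mean of Adamts4 reached the filter of 5.19, the median of all values, so the gene was tested through the state in which it was high, and its day 19 differences are given as values only. That mean rested on replicate 2: the difference from day 12 was 1.00 without replicate 1 and 0.16 without replicate 2. Macrophage markers on the 2 arrays are given above.

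**Figure D3:**
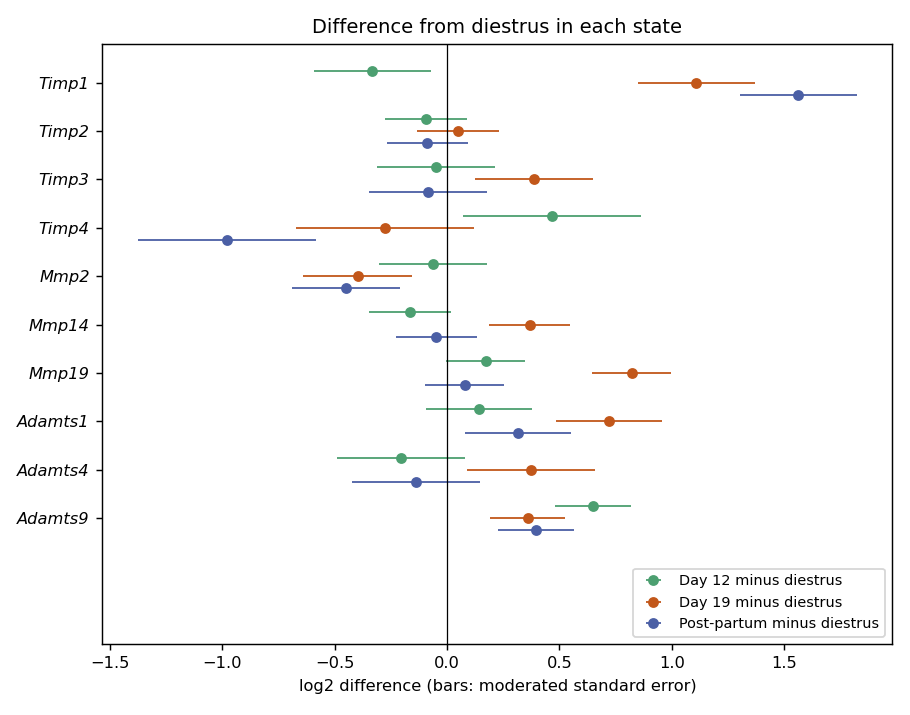
Log2 difference from diestrus of each gene at day 12, at day 19 and post-partum (points), with the moderated standard error from limma as a bar. Timp1 lies farthest right post-partum, at 1.56, and Timp4 farthest left, at -0.98; the 3 differences of Timp2 lie between -0.094 and 0.049.

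Counted over the 10 genes, 0 passed the adjusted threshold of 0.05 in any of the 5 comparisons or in the F test over the 3 states against diestrus, and the same held for all 13872 genes tested (0% in each). At an unadjusted p under 0.05, 1 of 10 was higher and 0 lower for day 12 against diestrus, where 2.31% of all genes had such a p. At day 19 against diestrus 3 were higher and 0 lower (7.29% of all genes), and post-partum 2 were higher and 1 lower (6.62%). Day 19 against day 12 gave 4 higher and 0 lower (6.47%), and post-partum against day 19 gave 0 higher and 1 lower (8.25%). The F test gave 4 of 10, namely Timp1, Mmp19, Adamts9 and Timp4 (5.81%), with a limma adjusted p of 0.527 for Timp1 and 0.726 for each of the others. The median difference of the 10 genes was -0.055 at day 12, 0.37 at day 19 and -0.067 post-partum, against 0.017, -0.029 and -0.0037 over all genes tested. It was 0.48 for day 19 against day 12 and -0.41 for post-partum against day 19, against -0.042 and 0.013. These medians include Adamts4, which was tested only through its day 19 mean. The 10 genes were chosen with earlier results of these data known, so the counts and medians are a description.

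The separation of the arrays was counted in the same way, taking a gene as separated where both arrays of a state lay above, or both below, the arrays of the other state. Day 19 against day 12 separated all 10 genes: 7 were higher (Timp1, Timp2, Timp3, Mmp14, Mmp19, Adamts1 and Adamts4), against 16.3% of all genes, and 3 were lower (Timp4, Mmp2 and Adamts9), against 23.2%. Adamts4 was tested only through its day 19 mean, so its place among the 7 is no result; of the other 9 genes, 6 were higher and 3 lower. The gap was as small as 0.066 for Timp2. Post-partum against day 19, 0 were higher (19% of all genes) and 4 were lower, Timp3, Mmp14, Mmp19 and Adamts1 (14.3%). Against diestrus, 5 were higher and 1 lower at day 19 (16.4% and 20.4% of all genes). Post-partum 3 were higher and 2 lower (21.1% and 21.7%), and at day 12, 2 were higher and 2 lower (21.7% and 15.6%), shares near those of all genes. Comparisons that share an array group are not independent of each other, and the 10 genes were chosen with earlier results of these data known.

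**Figure D4:**
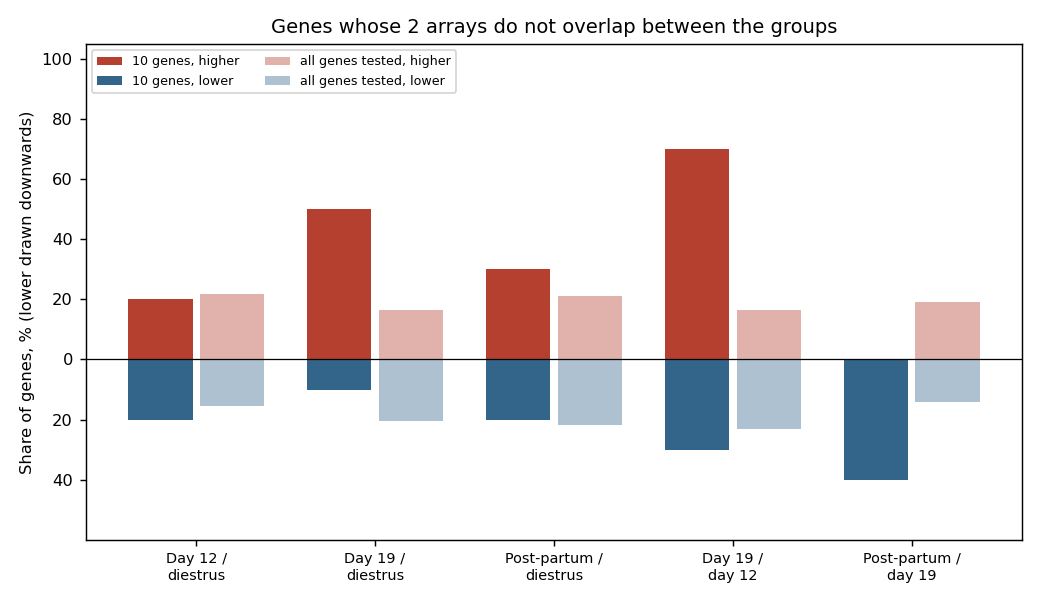
Share of genes, in percent, whose arrays did not overlap between the states compared: the 10 genes (dark bars) beside all 13872 genes tested (pale bars), higher drawn upwards in red and lower downwards in blue. For day 19 against day 12 the dark bars reach 70% (Adamts4 included, which was tested only through day 19) and 30%, against 16.3% and 23.2%, while for day 12 against diestrus both kinds of bar are of like height.

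Genes of the wider protease system were read from 7 lists of other MMPs, other ADAMTS and ADAMTS-like genes, ADAM sheddases, the plasminogen system, cathepsins with cystatins, other protease regulators and protease substrates, 97 genes of which 78 were tested. None passed the adjusted threshold in limma in any of the 5 comparisons. At an unadjusted p under 0.05 there were 0 genes at day 12 against diestrus, where 2.31% of all genes had such a p. At day 19, 5 were higher and 5 lower (12.8% of the 78, against 7.29% of all genes), and post-partum 5 were higher and 2 lower (8.97%, against 6.62%). Day 19 against day 12 gave 9 higher and 4 lower (16.7%, against 6.47%). For post-partum against day 19 the counts were 10 higher and 8 lower (23.1%, against 8.25%). Among the genes counted were Mmp3, Mmp13, Mmp27 and Adamts13, which passed the filter only through states in which they were high. The lists were also chosen with earlier results of these data known, so the shares are given as a description.

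Of the 11 other MMPs tested, Mmp3, the stromelysin that cleaves many matrix proteins, had values of 6.42 and 5.27 at day 19, against 4.71 and 4.87 for diestrus. The difference was 1.06 ± 0.34, with the higher value on replicate 1, the array of high mesothelial and atrial markers. Mmp28 was lower at day 19 than at day 12 (-0.37 ± 0.14), and the collagenase Mmp13 and Mmp27 were lower post-partum than at day 19 (-0.75 ± 0.30 and -0.60 ± 0.25). These low genes passed the filter only through the states in which they were high, Mmp27 through day 19, Mmp13 through day 12 and day 19, and Mmp3 through day 19 and post-partum, so their differences are values only. Mmp8, the neutrophil collagenase, was measured but lay below the filter, at 4.24 and 4.98 at day 19 against 3.47 and 3.60 in diestrus.

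Among 17 other ADAMTS and ADAMTS-like genes, those past an unadjusted p of 0.05 at day 19 were all below diestrus: Adamts5, a major aggrecanase, by -0.69 ± 0.26, Adamtsl3 by -0.42 ± 0.15 and Adamts7 by -0.35 ± 0.15. Adamts5 had values of 7.89 and 7.20 at day 19, against 8.30 and 8.17 for diestrus. Against day 12, Adamts7 and Adamts10 were lower at day 19 (-0.49 ± 0.15 and -0.61 ± 0.22) and Adamts13, the protease of von Willebrand factor, was higher (0.49 ± 0.15), but Adamts13 was tested only through its day 19 mean of 5.28. After birth Adamtsl5 stood 0.52 ± 0.20 above diestrus, and Adamts7 and Adamtsl4 stood 0.40 ± 0.15 and 0.38 ± 0.15 above day 19. Of the 8 ADAM sheddases, Adam15 was above diestrus at day 19 and post-partum (0.54 ± 0.18 and 0.43 ± 0.18), Adam12 was above diestrus and day 19 post-partum (0.43 ± 0.15 and 0.35 ± 0.15), and Adam33 was below day 19 post-partum (-0.40 ± 0.17).

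In the plasminogen system, the urokinase receptor gene Plaur was 6.20 and 7.37 at day 19, against 5.38 and 5.93 in diestrus. Its difference of 1.13 ± 0.36 rested mainly on replicate 2, as did that of the lysosomal cathepsin Ctsz (0.87 ± 0.31; 9.55 and 10.62 at day 19 against 9.22 and 9.21 in diestrus). Against day 12, day 19 was higher for Plaur (0.97 ± 0.36), Ctsz (0.83 ± 0.31), the tissue plasminogen activator gene Plat (0.36 ± 0.13) and the cystatin Cstb (0.65 ± 0.22). Ctss and Ctsh were lower post-partum than at day 19 (-1.57 ± 0.68 and -0.76 ± 0.29), with Ctss at 7.85 and 10.38 on the day 19 arrays.

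Among the other regulators, the serine protease inhibitor Serpina3n was 7.39 and 7.86 in diestrus, 8.09 and 8.22 at day 12, 9.25 and 10.28 at day 19 and 8.11 and 8.63 post-partum. Day 19 exceeded diestrus by 2.14 ± 0.34 (limma adjusted p = 0.503). Day 19 exceeded day 12 by 1.61 ± 0.34, and post-partum was below day 19 by a difference of -1.40 ± 0.34. Pcsk6, a proprotein convertase, was below diestrus at day 19 (-0.76 ± 0.20), and Pcsk5, another convertase, was below diestrus and day 19 post-partum (-0.43 ± 0.17 and -0.44 ± 0.17). The C1 inhibitor gene Serping1 was above day 12 at day 19 (0.72 ± 0.27) and below day 19 post-partum (-0.67 ± 0.27). It was 10.85 and 11.78 on day 19 replicates 1 and 2, against 10.88 on both diestrus arrays. Both differences thus rested mainly on replicate 2, the array with high immune markers. The matrix protease Htra1 was 0.70 ± 0.22 above day 19 post-partum.

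Of the 14 substrates tested, Vcan, which encodes versican, the proteoglycan that the ADAMTS proteases cleave, was 7.02 and 6.98 in diestrus, 6.82 and 6.75 at day 12, 7.31 and 7.22 at day 19 and 7.51 and 7.62 post-partum. Its post-partum difference from diestrus was 0.57 ± 0.13 (limma adjusted p = 0.722), and day 19 exceeded day 12 by 0.48 ± 0.13. Its post-partum and day 19 arrays all lay above diestrus, as did those of Timp1. Col1a1, of fibrillar collagen I, was 0.58 ± 0.19 above diestrus and 0.54 ± 0.19 above day 19 post-partum, and Fbln1 was -0.65 ± 0.18 from diestrus. Lama2 stood at -0.45 ± 0.16 from diestrus and -0.48 ± 0.16 from day 12 at day 19, and post-partum was 0.47 ± 0.16 above day 19, as were Bgn by 0.41 ± 0.13 and Col4a2 by 0.47 ± 0.19.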

How the data were processed

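The deposited table holds log2 expression values per probe set, which, per the submitters' processing notes, the authors made by RMA using Affymetrix Expression Console. Not given in the sources used here are software versions, the library file and the build. RMA equalises the arrays, so a change shared by most genes is removed. Of 34365 probe sets, 23521 had 1 gene symbol in the platform annotation, 1814 had several and 9030 were unnamed here. The highest-mean probe set was kept per gene (22180 genes), and 13872 genes with a state mean of at least 5.19 were tested.

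limma 3.58.1 (R 4.3.3) fitted 1 mean per state over the 8 arrays (4 residual and 3.68 prior degrees of freedom), with two-sided tests, Benjamini-Hochberg adjustment over all genes and a threshold of 0.05, and was first tested on simulated data. Precision is limited by the number of arrays, with a median standard error of 0.17. Of 10 genes studied, all were tested. Other genes were named from fixed lists, up to 4 per list and comparison with the smallest unadjusted p under 0.05. The members and lists were chosen with earlier results of these data known. Alternatives covered array weights, variance prior, filters, groups fitted, median centring, averaged probe sets, each array left out and the replicate number as a block.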

Additional observations from a re-analysis of the deposited data

How the results depend on the processing

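With 2 arrays a state, small differences could not be resolved. Of 29 differences of the 10 genes that were separated or had an unadjusted p under 0.05, 0 changed sign in any alternative. All 29 were separated, so leaving out an array could not turn a sign, by construction. Array weights, variance prior, filters, groups fitted and averaged probe sets left the estimates of these genes as they were. Only median centring and the replicate block could have turned a sign. The count of 0 genes called changed as follows. Array weights called 1 gene at day 12 against diestrus (Snord99) and a trended, robust variance called 1 for post-partum against day 19 (Scd4), both named after their values were seen. With each array left out, calls ranged from 0 to 1 at day 12, 0 to 1233 at day 19 and 0 to 3 post-partum against diestrus, from 0 to 1312 for day 19 against day 12, from 0 to 872 for post-partum against day 19 and from 0 to 663 in the F test; the counts of 663 and more came without day 19 replicate 1, and without day 19 replicate 2 there were 2, 2, 2 and 3 in those 4 tests. Without post-partum replicate 4, 3 genes were called against diestrus and 4 against day 19, and without diestrus replicate 2, 1 gene in each state against diestrus. In these fits the lone array is assumed to vary like the other groups. They called 4 differences of the 10 genes, all without day 19 replicate 1: 2 of Timp1 and 1 of Adamts1, given above, and 1 of Adamts4, which is not read, since day 19 alone brought that gene past the filter.

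With the replicate number as a block, 18, 2465 and 599 genes were called at day 12, day 19 and post-partum against diestrus, 2635 for day 19 against day 12, 2442 for post-partum against day 19 and 2633 in the F test, and 16 of the 29 differences passed. The labels do not say what a number marks, same-numbered arrays deviated together by correlations of -0.059 to 0.22, and this fit leaves 1 residual degree of freedom, so it is not read as a stronger result.

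Leaving out an array, an alternative added after the data were seen, can only raise the counts of separated genes, by its construction: at day 12 against diestrus from 2 to 5 higher and 3 to 5 lower (35.6% to 40.3% and 29.1% to 31.6% of all genes), at day 19 from 5 to 7 and 1 to 2 (27.6% to 36.5% and 29.8% to 50.4%), post-partum from 3 to 5 and 2 to 4 (33.7% to 38.4% and 33.7% to 40.5%), and for post-partum against day 19 from 0 to 3 and 4 to 8 (30.4% to 45.6% and 24.3% to 36.9%). For day 19 against day 12 all 10 were already separated, so the counts could not change, and the shares over all genes were 26.6% to 34.1% higher and 33.7% to 51.9% lower.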

Other observations

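The genes whose values over the 8 arrays were most like those of the 3 members with the widest range are given as a description; the arrays fall into 4 pairs of 1 state each. For Timp1 they were Aldh1a2, which makes retinoic acid, Dynll1 and the amino acid transporter Slc1a4, with Pearson correlations of 0.97, 0.97 and 0.96 and Spearman's rho of 0.90, 0.98 and 0.83. Without post-partum replicate 4 and day 12 replicate 2, the arrays farthest from the median of Timp1, the correlations were 0.96, 0.98 and 0.95. For Timp4 they were Mbtps2, Zfp189 and Aldh9a1 (0.99, 0.99 and 0.98; rho 0.98, 1.00 and 0.93), and 0.95, 0.93 and 0.92 without post-partum replicate 2 and day 12 replicate 3. For Mmp19 they were Selp, the endothelial and platelet selectin, Plek and Slc7a7 (0.96, 0.96 and 0.94; rho 0.93, 0.90 and 0.88), and 0.90, 0.83 and 0.86 without the 2 day 19 arrays.

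A2m, a broad protease inhibitor of the regulator list, was singled out after its values were seen. It stood at 9.22 on diestrus replicate 3, against 5.20 on diestrus replicate 2 and 4.97 to 6.16 on the other 6 arrays.

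Among the 10 genes, 4 were highest on day 19 replicate 2 (Mmp14, Timp3, Adamts1 and Adamts4) and 4 were lowest on post-partum replicate 2 (Mmp2, Timp2, Timp4 and Adamts4). The share of all genes with their extreme on these arrays was not computed, so the counts are a description only. Adamts4 was tested only through its day 19 mean, so its place among the highest on a day 19 array is no result. Of all pairs of the 10 genes, Mmp2 with Timp4 and Timp3 with Adamts1 had the highest Pearson correlations over the 8 arrays, 0.88 and 0.84. Spearman's rho was 0.55 and 0.74. Without day 19 replicate 2 the Pearson correlations were 0.87 and 0.75. Mmp2 and Timp4 were both lowest on post-partum replicate 2, and their correlation without that array was not computed.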
